A study of Mus musculus with 6 samples.

Results

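The genes described here encode RNA modification enzymes, their protein partners and the proteins that bind modified RNA. They are a list of 48 genes chosen by function, of 31641 genes in the deposited table. All 48 had a row in the table and 47 had enough counts to be tested. They were followed in 6 libraries of poly(A)-selected RNA from the mouse embryonic stem cell line E14. The 3 control libraries (CON) came from cells labelled Nat10 WT and grown without Dox (doxycycline), and the 3 knockdown libraries (KD) from cells labelled Nat10 KD and grown with it. Doxycycline and the knockdown were never separated, so their parts in any difference cannot be told apart. The construct behind the knockdown, its clone, the dose and the duration are not given in the labels. Nothing in the labels says whether replicates were grown separately. The p-values therefore measure only the spread between these libraries, which may be technical.

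RNA bases are modified after transcription by writers, taken off by erasers in a few cases, and recognised by readers. Acetylation of cytidine (ac4C) is laid down by Nat10 on ribosomal RNA, transfer RNA (tRNA) and messenger RNA (mRNA), and the tRNA sites need the adaptor Thumpd1. Methylation of adenosine (m6A) on mRNA is written by the Mettl3-Mettl14 complex and marks pluripotency transcripts in embryonic stem cells for decay. Pseudouridine and 2′-O-methyl groups on ribosomal RNA are placed by particles guided by small nucleolar RNAs (snoRNAs).

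The libraries held between 33770755 and 39524273 counts. On the share of all counts, before any scaling, the 48 genes took 0.527 to 0.537% in CON and 0.438 to 0.450% in KD, with no overlap between groups. Ybx1 weighs most in this share, with 62204 to 70470 counts in the CON libraries and 42609 to 53083 in the KD libraries. Levels are given as TMM-scaled CPM, which is counts scaled to a common library total (CPM) after a correction for library composition, with mean ± SD over n = 3 libraries per group. Fold changes are KD over CON from edgeR's quasi-likelihood test, as log2 values with the standard error (SE), and a gene passed at a Benjamini-Hochberg adjusted p under 0.05 over 18019 genes. Scaling by library size only, without the composition correction, shifted the median log2 fold change of all genes by 0.229, from 0.02 to 0.25. It raised the value of each member by about the same amount. Library KD-3 stood a little apart from the others of its group, with a chi-square per degree of freedom over gene counts (near 1 for sampling noise alone) of 14.3 against KD-1 and 10.7 against KD-2, where KD-1 and KD-2 gave 3.00. Between CON and KD libraries it was 133 to 155. The embryonic stem cell markers were expressed in every library, with a summed level of 6954 to 7004 CPM in CON and 2470 to 2568 CPM in KD, and all 10 of 10 were lower in KD. The feeder fibroblast markers summed to 25.7 to 29.7 CPM in CON and 54.2 to 60.0 CPM in KD. Of the 10 listed, 4 rose, 1 fell, 3 were too low to test, and Dcn and Lum were not analysed here. Neuron markers summed to 156 to 157 CPM in CON and 63.4 to 71.9 CPM in KD, with 3 lower and 4 higher of 9 tested and Dcx not analysed here. Most of that sum was Stmn2 (94.6 to 21.8 CPM) and Tubb3 (37.2 to 5.64 CPM), while Map2, Snap25, Syt1 and Elavl3 rose. Primitive endoderm markers summed to 407 to 424 CPM in CON and 312 to 322 CPM in KD, with 3 lower and 2 higher of 10. Most of that sum was Col4a1 (301 to 228 CPM), while Foxa2 and Pdgfra rose. The neuron and endoderm sums therefore do not stand for their lists as a whole. Beside these marker counts, 30.8% of all genes were lower and 32.2% higher. None of the listed markers with a row was at 0 in all libraries. The part of these shifts in the results below was not tested. In such bulk RNA, fewer cells of a type and less RNA per cell cannot be told apart.

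Most of the members were lower in the knockdown libraries. Of the 47 tested members, 32 fell and 6 rose, while 9 did not pass the test. Nat10, the gene targeted by the knockdown, is among those that fell here and in the counts below. Among all genes tested, 30.8% were called lower and 32.2% higher, whereas among the members it was 68.1% and 12.8%. The 6 that rose were Trmt112, Zc3h13, Fto, Nsun4, Nsun5 and Bud23. The median log2 fold change was -0.41 over the members and 0.02 over all genes tested. With library-size scaling only, 25 of the 47 were lower (background 19.6%) and 11 higher (background 46%), with a median of -0.18 against 0.25. The distance between the members' median and that of all genes was -0.43 under both scalings. Changing the scaling shifts all genes by nearly the same amount, so this agreement was fixed in advance and is no check of the result. These counts and medians describe the list and carry no test of it.

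The falls were moderate in size apart from Nat10 and Mettl1. A fall of at least 1.5-fold was seen in 15 of the 47 tested members, against 2708 of all 18019 genes (15%). A rise of that size was seen in 0, against 17.9% of all genes. With library-size scaling only, 4 of the 47 fell by that much, and the share of all genes was not counted under that scaling. Every KD library was below every CON library for 32 of the 47 (background 32.8%), and every KD library was above for 6 (background 34.4%). Because well-expressed genes fell more often than others in these libraries, the members were also read against genes averaging 20 CPM or more, a level chosen after the data were seen. Of 8248 such genes, 44.3% were called lower and 32.5% higher, and their median was -0.07. Of the 41 members at that level, 30 (73.2%) were lower and 6 were higher, with a median of -0.43. In the authors' deposited table, Nat10, Mettl1 and Pus3 were the only members whose log2 value reached 1 in size. There the CON over KD values were 2.45 for Nat10, 1.28 for Mettl1 and -1.32 for Pus3, the last with an adjusted p of 0.252.

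**Figure D1:**
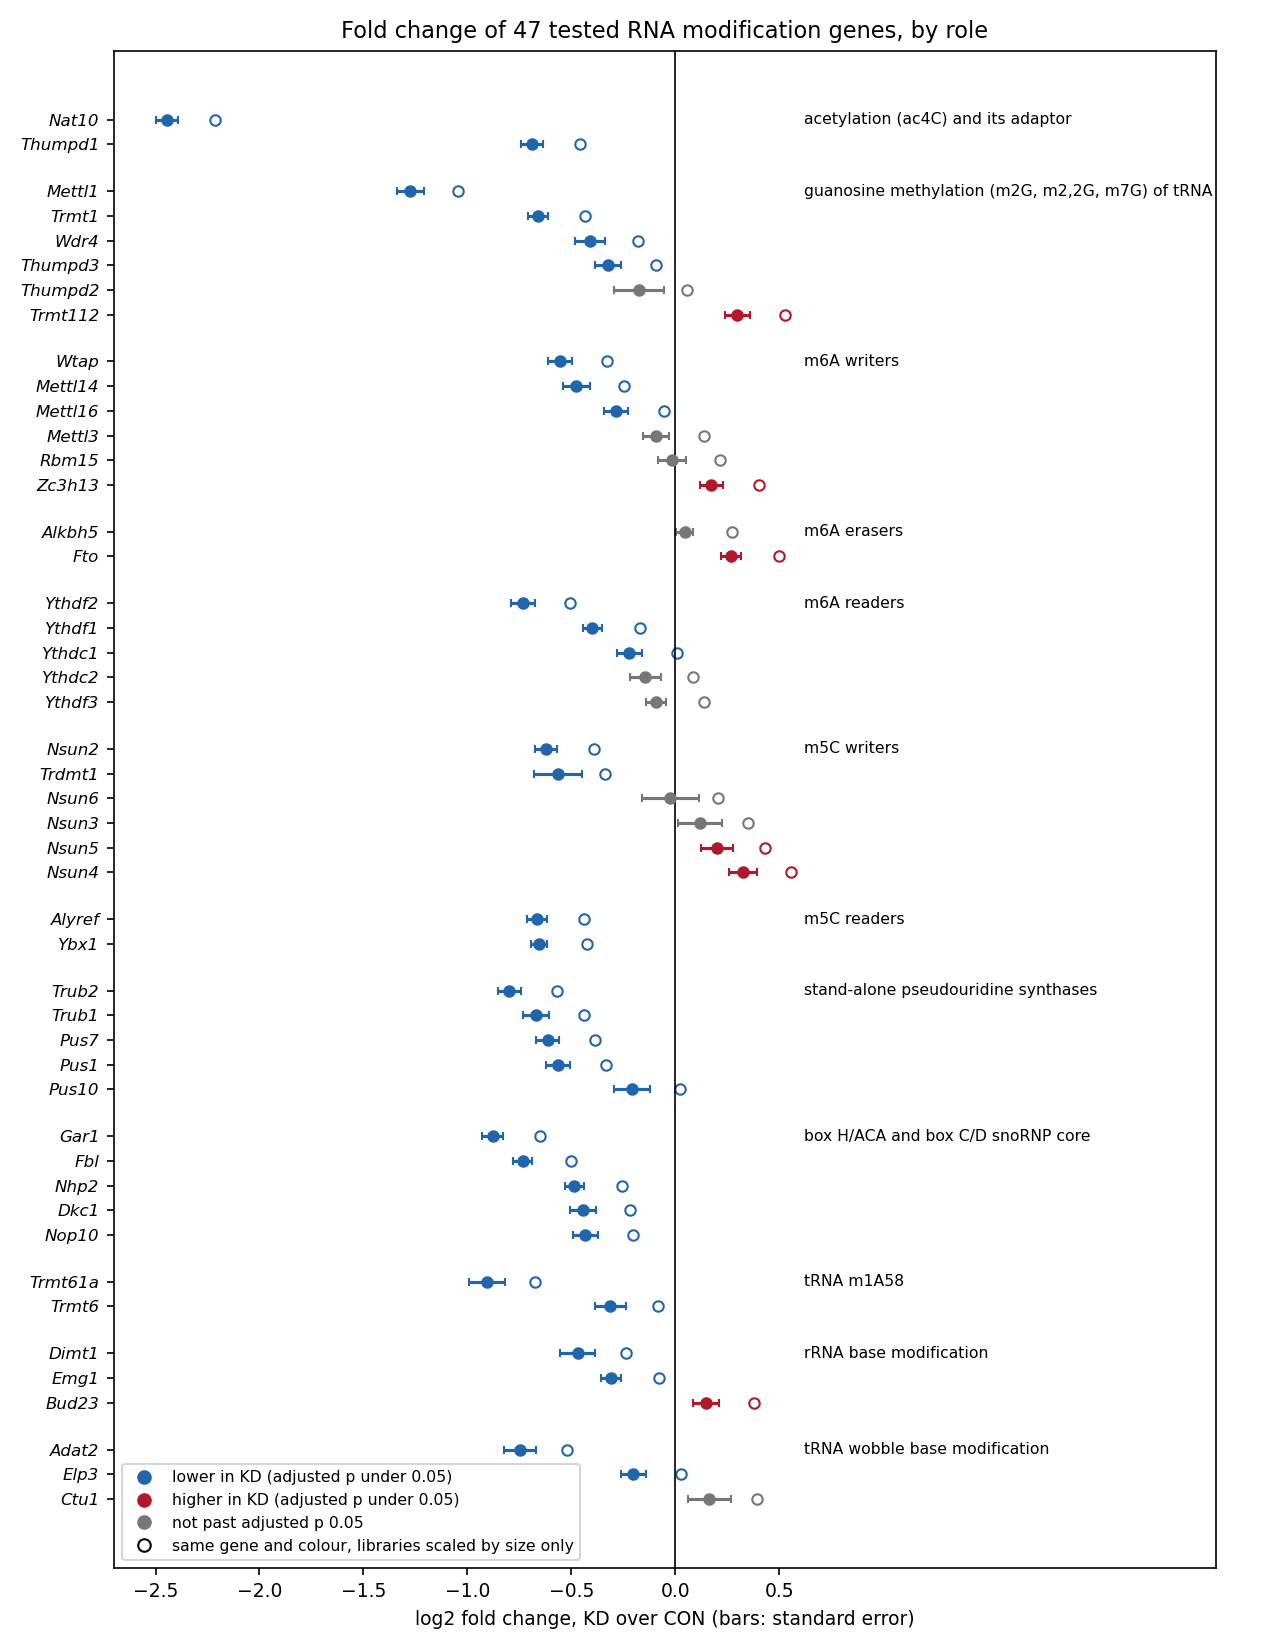
Log2 fold change (KD over CON, horizontal axis) of the 47 tested members, grouped by role. Filled points are the TMM-scaled values with SE bars, coloured by call. Open circles are the same genes with libraries scaled by size only and lie to the right by 0.229 or close to it. Most filled points lie left of 0, and Nat10 at -2.44 and Mettl1 at -1.27 lie farthest.

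The start regions of the members were searched for known motifs. The members that fell were not compared with the other members in this search. RefSeq gave a promoter window for 40 of the 48 members on GRCm38.p6, running from 250 bases before to 50 bases after the start of transcription. The E-box CACGTG, which reads the same on both strands and is the site known for Myc and Max among other factors, was found in 7 of the 40 (17.5%), against 8.09% of 27025 genes with a window. The genes with a window were taken whether or not they were expressed here, so the shares compare unlike sets. Among the 7, Mettl1, Trmt61a, Pus1, Pus7 and Ythdf1 fell, Thumpd2 did not pass and Pus3 was too low to test. Of all tested members, 68.1% fell. Counting the annotated start as position 1, the E-box begins at 31 in Mettl1, 26 in Trmt61a, 29 in Pus7 and 4 in Pus1, and in Thumpd2 it begins at -10. Windows are shown for those 5 because their E-boxes lie nearest to the start, and for Nat10, which holds none of the motifs searched. They read 5′ to 3′ in the direction of the gene, with the E-box in capitals.
Mettl1: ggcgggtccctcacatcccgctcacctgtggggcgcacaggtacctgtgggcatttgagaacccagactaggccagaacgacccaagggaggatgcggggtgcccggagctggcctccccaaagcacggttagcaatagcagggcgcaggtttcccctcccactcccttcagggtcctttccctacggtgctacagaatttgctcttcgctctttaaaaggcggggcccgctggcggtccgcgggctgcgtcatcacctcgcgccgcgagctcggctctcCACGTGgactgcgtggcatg
Trmt61a: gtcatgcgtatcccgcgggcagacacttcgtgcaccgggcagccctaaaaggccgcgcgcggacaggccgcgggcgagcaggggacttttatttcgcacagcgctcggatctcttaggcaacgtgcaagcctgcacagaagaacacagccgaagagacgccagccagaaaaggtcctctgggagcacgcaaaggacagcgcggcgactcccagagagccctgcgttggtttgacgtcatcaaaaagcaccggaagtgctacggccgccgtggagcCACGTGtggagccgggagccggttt
Pus1: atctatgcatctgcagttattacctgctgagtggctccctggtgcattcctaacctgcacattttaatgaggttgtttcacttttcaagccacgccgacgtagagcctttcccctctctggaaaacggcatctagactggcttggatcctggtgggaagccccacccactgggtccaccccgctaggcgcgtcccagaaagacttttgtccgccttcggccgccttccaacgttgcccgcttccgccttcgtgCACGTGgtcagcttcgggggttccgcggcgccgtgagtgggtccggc
Pus7: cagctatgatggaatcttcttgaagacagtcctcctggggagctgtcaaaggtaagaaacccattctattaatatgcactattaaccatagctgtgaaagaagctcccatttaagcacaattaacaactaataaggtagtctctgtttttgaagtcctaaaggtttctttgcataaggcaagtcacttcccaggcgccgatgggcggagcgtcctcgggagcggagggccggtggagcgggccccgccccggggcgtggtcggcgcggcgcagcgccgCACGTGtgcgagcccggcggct
Thumpd2: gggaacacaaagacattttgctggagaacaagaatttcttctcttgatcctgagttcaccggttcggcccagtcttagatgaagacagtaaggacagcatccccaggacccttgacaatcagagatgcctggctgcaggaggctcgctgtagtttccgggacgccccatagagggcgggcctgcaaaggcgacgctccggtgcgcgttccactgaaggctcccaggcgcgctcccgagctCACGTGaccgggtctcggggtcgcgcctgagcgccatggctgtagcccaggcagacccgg
Nat10: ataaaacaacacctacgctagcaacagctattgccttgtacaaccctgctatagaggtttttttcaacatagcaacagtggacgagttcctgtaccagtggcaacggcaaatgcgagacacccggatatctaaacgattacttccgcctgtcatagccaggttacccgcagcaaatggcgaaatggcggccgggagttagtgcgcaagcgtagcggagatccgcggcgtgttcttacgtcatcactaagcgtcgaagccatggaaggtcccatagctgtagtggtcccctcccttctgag
These windows are chr10:127041682-127041981 (plus strand) for Mettl1, chr12:111677855-111678154 (plus) for Trmt61a, chr5:110780547-110780846 (minus) for Pus1 and chr5:23783662-23783961 (minus) for Pus7. The others are chr17:81065036-81065335 (minus) for Thumpd2 and chr2:103761221-103761520 (minus) for Nat10. The element TGATGCAAT known for ATF4 and the element GCGCATGC known for NRF1, each searched on both strands, were in 0 of the 40 members and in 0.222 and 3.05% of all genes. The YY1 element AAGATGGCG, also searched on both strands, was in Mettl16 only (2.5% of members and 1.64% of all genes). None of these motifs contains another. A match is a description of the letters and not of binding.

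Both acetylation genes were lower, Nat10 through the design of the knockdown. Nat10 (ENSMUSG00000027185, chr2:103721256-103761270 on GRCm38, minus strand) is the enzyme that the study lowered. It stood at 146, 151 and 150 CPM in CON-1 to CON-3 and at 26.2, 27.2 and 28.7 CPM in KD-1 to KD-3. All KD libraries were far below all CON libraries. The fall was 5.44-fold (log2 -2.44, SE 0.054, adjusted p = 4.212e-14), and Nat10 was lower relative to CON than all but 0.705% of tested genes. Thumpd1 (chr7:119715093-119720798, minus strand), which presents tRNA to Nat10, stood at 126, 123 and 120 CPM in CON and 72.4, 76.2 and 80.2 CPM in KD. Its fall was 1.61-fold (log2 -0.69, SE 0.052, adjusted p = 1.539e-08). Per kilobase of exon, Nat10 was at 20.7 CPM and Thumpd1 at 40.9 CPM in CON, and at 3.80 and 25.4 CPM in KD. Gene lengths were recovered from the deposited values and may exceed those of the mRNAs present. Levels per kilobase therefore compare different genes only roughly, here and below.

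Most genes for guanosine methylation of small RNAs had a lower mRNA level. Of 6 members, 4 fell (66.7%, against 30.8% of all genes), 1 rose (16.7%, against 32.2%) and 1 did not pass. With library-size scaling only, 3 were lower and 1 was higher. Mettl1 (ENSMUSG00000006732, chr10:127041414-127046365, plus strand), the catalytic subunit for 7-methylguanosine (m7G) on tRNA, was at 51.9, 48 and 50.7 CPM in CON. In KD it was at 20.7, 20.9 and 20.7 CPM, a near identical level in each library. It fell 2.42-fold (log2 -1.27, SE 0.063, adjusted p = 1.475e-10), the largest change among the tested members after Nat10. Mettl1 shares 100 exonic bases with Eef1akmt3 on the opposite strand. Wdr4, its non-catalytic partner, moved less, from 51.3, 56.5 and 51.9 CPM to 43.4, 40.1 and 36.5 CPM (log2 -0.41, SE 0.070, adjusted p = 0.0001028). Trmt1, which makes dimethylguanosine in tRNA, was at 148, 155 and 149 CPM in CON and 98.2, 95.9 and 91.6 CPM in KD. The groups did not overlap, and Trmt1 fell 1.58-fold (log2 -0.66, SE 0.047, adjusted p = 9.199e-09).

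Thumpd3 and Thumpd2 are methylguanosine writers, of tRNA and of a spliceosomal RNA, and both work only with the small activator Trmt112. Thumpd3 went from 81.5 ± 2.49 to 65.1 ± 5.79 CPM (log2 -0.32, SE 0.063, adjusted p = 0.0003322), a call lost with library-size scaling (-0.09, adjusted p = 0.2036). Thumpd2 was at 12.1 ± 1.71 and 10.8 ± 1.37 CPM with overlapping groups and did not pass (log2 -0.17, SE 0.12, adjusted p = 0.2296). Trmt112, by contrast, rose, from 47.7, 48 and 45.3 CPM in CON to 58.4, 54.3 and 60.8 CPM in KD. All its KD libraries were above all CON libraries (1.23-fold, log2 0.30, SE 0.060, adjusted p = 0.0004565). Trmt112 shares 409 of its 1233 exonic bases with Prdx5 on the opposite strand, which went from 54.7 to 86.3 CPM (log2 0.66). With the strand setting of the count not given in the sources used here, reads of the shared bases cannot be told apart, and 18 members share exonic bases with a gene on the opposite strand.

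**Figure D2:**
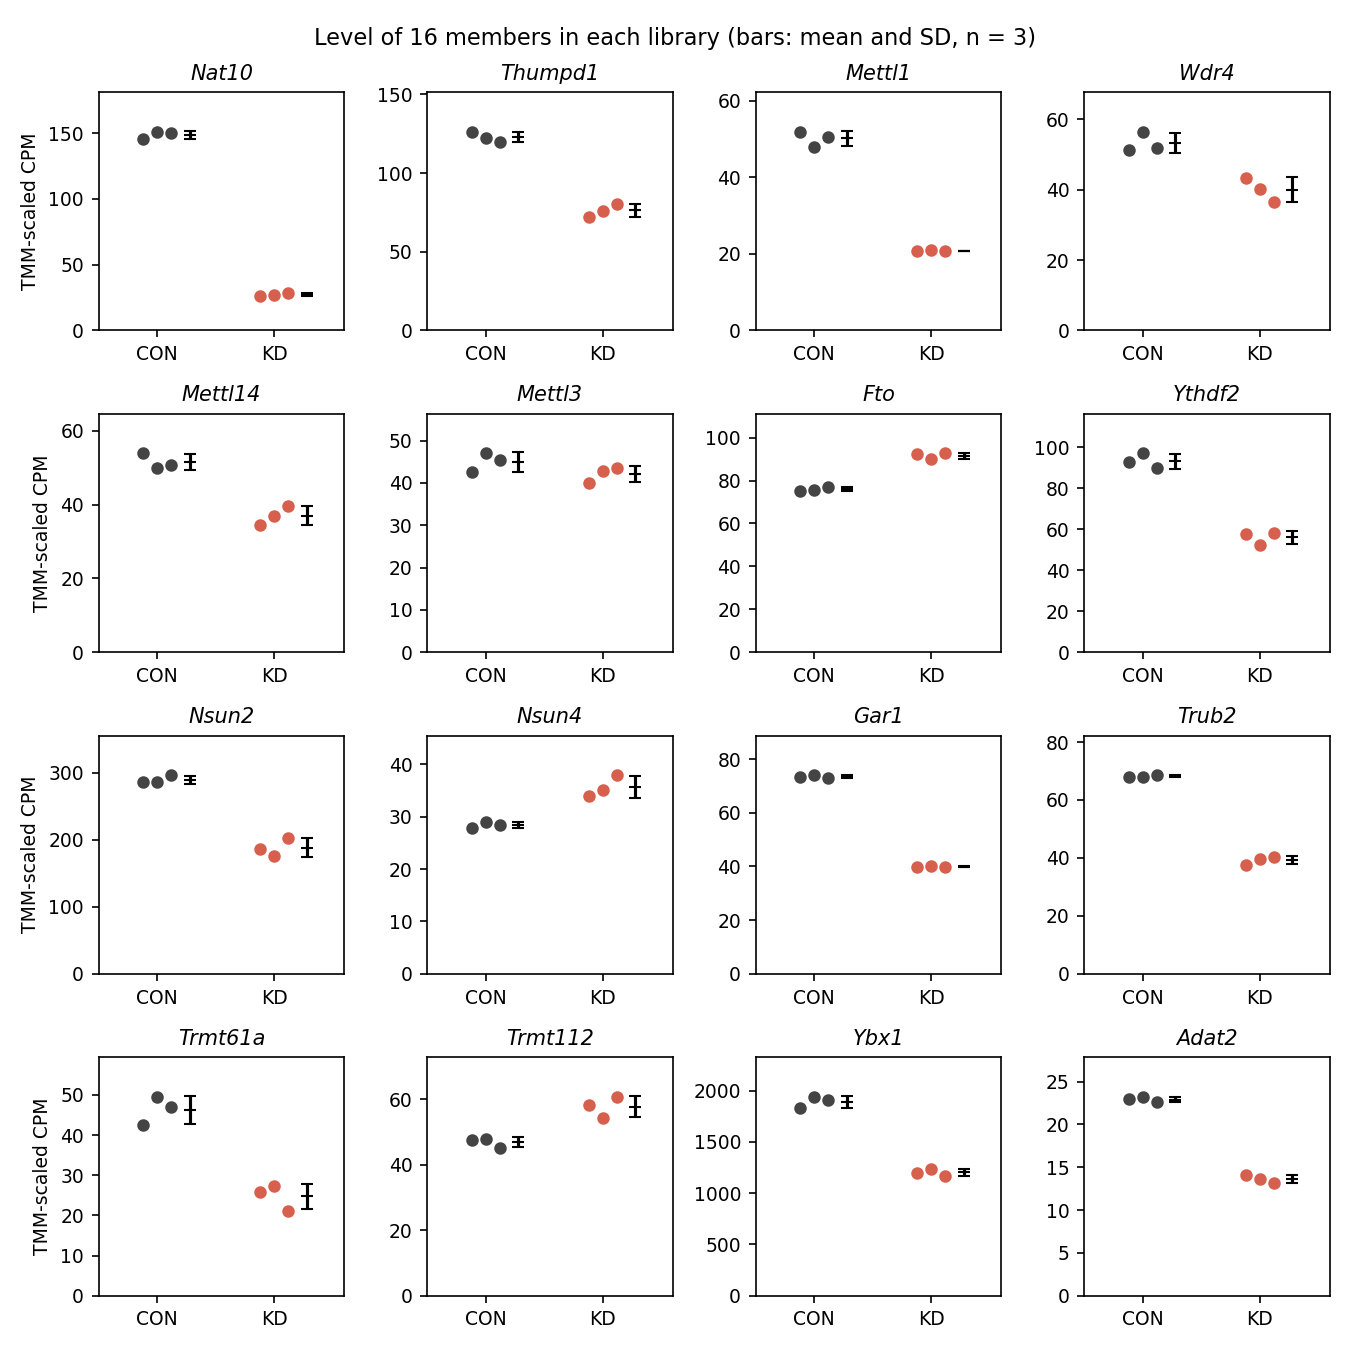
TMM-scaled CPM (vertical axes, from 0) of 16 members in each of the 3 CON and 3 KD libraries, with mean and SD at the side. Nat10 and Mettl1 show the widest gaps between groups, Mettl3 overlaps between groups, and Fto, Nsun4 and Trmt112 are higher in KD.

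The m6A writers did not move together. Of 6 members, 3 fell (Wtap, Mettl14, Mettl16), 1 rose (Zc3h13) and 2 did not pass (Mettl3, Rbm15). That is 50% lower and 16.7% higher, against 30.8% and 32.2% of all genes. With library-size scaling only, Wtap and Mettl14 were lower while Zc3h13 and Rbm15 were higher. Wtap, the adaptor that holds the writer in nuclear speckles, was at 112, 104 and 107 CPM in CON and at 69.5, 71.7 and 79.3 CPM in KD. That is a 1.47-fold fall with no overlap (log2 -0.56, SE 0.057, adjusted p = 5.345e-07). Mettl14, the RNA-binding partner of the catalytic subunit, was at 53.8, 49.8 and 50.7 CPM in CON and 34.4, 36.9 and 39.7 CPM in KD. It fell 1.39-fold (log2 -0.48, SE 0.066, adjusted p = 1.282e-05). Mettl3, the catalytic subunit, was at 42.5, 46.9 and 45.3 CPM in CON and 40, 42.8 and 43.6 CPM in KD. Its groups overlapped and it did not pass (log2 -0.09, SE 0.063, adjusted p = 0.2196). Mettl3 shares 933 exonic bases with Tox4 on the opposite strand.

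Zc3h13, a scaffold that keeps the writer complex in the nucleus, was at 87.9, 89.5 and 89.7 CPM in CON and 95.2, 97.1 and 109 CPM in KD. The rise was 1.13-fold (log2 0.17, SE 0.055, adjusted p = 0.01321), and without CON-1 it was not called (adjusted p = 0.06149). Mettl16, a separate m6A enzyme with few targets, went from 77.1 ± 0.554 to 63.4 ± 4.83 CPM (log2 -0.28, SE 0.059, adjusted p = 0.0005731), a call lost with library-size scaling (-0.05). Rbm15, which guides the writer to its targets, was at 33.0 ± 2.13 and 32.6 ± 1.38 CPM (log2 -0.02, SE 0.069, adjusted p = 0.8578). Its value turned positive with library-size scaling (0.21, adjusted p = 0.01293).

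Neither m6A eraser fell. Fto, a demethylase of m6A and of the cap-adjacent methyladenosine, was at 75.3, 75.5 and 77.2 CPM in CON and at 92.1, 89.8 and 92.6 CPM in KD. All KD libraries were above all CON libraries, and the rise was 1.20-fold (log2 0.27, SE 0.048, adjusted p = 0.0001487). Alkbh5, the other demethylase, was at 162, 165 and 164 CPM in CON and 171, 169 and 167 CPM in KD. Its difference did not pass (log2 0.05, SE 0.042, adjusted p = 0.3646) and was called higher with library-size scaling only (0.27, adjusted p = 3.146e-05).

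Among the m6A readers of the YTH family, 3 of 5 fell (60%, against 30.8% of all genes) and 2 did not pass. With library-size scaling only, Ythdf2 and Ythdf1 were lower and Ythdf3 was higher. Ythdf2, the reader best known for sending m6A mRNA to decay, was at 92.8, 97.0 and 89.7 CPM in CON and 57.6, 52.5 and 58.1 CPM in KD. It fell 1.66-fold (log2 -0.73, SE 0.057, adjusted p = 2.128e-08). Ythdf1, a cytoplasmic paralog, was at 195, 195 and 182 CPM in CON and at 146, 141 and 146 CPM in KD, a fall of 1.32-fold (log2 -0.40, SE 0.046, adjusted p = 1.736e-06). Both genes had no overlap between groups.

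Ythdf3, the remaining cytoplasmic paralog, was at 111, 109 and 108 CPM in CON and 101, 100 and 107 CPM in KD. The groups did not overlap, but the difference did not pass (log2 -0.09, SE 0.048, adjusted p = 0.1060). It passed without KD-3 (log2 -0.13, adjusted p = 0.007714), and its sign turned with library-size scaling (0.14, adjusted p = 0.02067). Per kilobase, Ythdf2 and Ythdf3 were both at 20.4 CPM in CON, and at 12.3 and 19.1 CPM in KD. Ythdc1, the nuclear reader, fell from 105 ± 2.65 to 90.2 ± 8.0 CPM (log2 -0.22, SE 0.060, adjusted p = 0.004656), and with library-size scaling its value was 0.01. Ythdc2, a helicase known from meiosis, was at 30.0 ± 1.61 and 27.2 ± 1.82 CPM and did not pass (log2 -0.14, SE 0.074, adjusted p = 0.1021). Without KD-3 it did (log2 -0.17, adjusted p = 0.03757).

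Genes for writers of 5-methylcytidine (m5C) were called lower and higher at about the shares of all genes (30.8% and 32.2%). Of 6 members, 2 fell (Nsun2, Trdmt1), 2 rose (Nsun4, Nsun5) and 2 did not pass (Nsun3, Nsun6), or 33.3% in each direction, and with library-size scaling only Nsun3 was also higher. Nsun2, the main cytosolic tRNA and mRNA writer, was at 286, 287 and 296 CPM in CON and 186, 176 and 203 CPM in KD. It fell 1.54-fold with no overlap (log2 -0.62, SE 0.052, adjusted p = 4.720e-08). Trdmt1, a tRNA writer of the DNA methyltransferase fold, was at 13.1, 11.4 and 10.1 CPM in CON and at 7.23, 7.94 and 8.28 CPM in KD. The fall was 1.48-fold (log2 -0.56, SE 0.11, adjusted p = 0.0004922).

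Nsun4, which methylates mitochondrial ribosomal RNA, was at 27.8, 28.9 and 28.4 CPM in CON and 33.9, 35.1 and 37.9 CPM in KD. All KD libraries were above all CON libraries, and the rise was 1.25-fold (log2 0.33, SE 0.066, adjusted p = 0.0004953). Nsun5, which methylates cytosolic ribosomal RNA, was at 27.4, 26.8 and 26.5 CPM in CON and 33.5, 31.5 and 27.8 CPM in KD. Its rise was 1.15-fold (log2 0.20, SE 0.076, adjusted p = 0.03009), and the call was lost without any of CON-1, CON-2, CON-3, KD-1 or KD-2 (adjusted p = 0.06931 to 0.1713). Nsun5 shares 665 exonic bases with Pom121 on the opposite strand. Nsun3, a writer of a mitochondrial tRNA, was at 12 ± 0.767 and 13.0 ± 1.56 CPM (log2 0.12, SE 0.10, adjusted p = 0.3354). Nsun6, a writer of tRNA and mRNA sites, was at 8.49 ± 1.83 and 8.37 ± 0.584 CPM (log2 -0.02, SE 0.14, adjusted p = 0.8955), with a value of 0.21 under library-size scaling.

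Both m5C readers fell, where 30.8% of all genes did. Ybx1, a cold-shock domain protein that stabilises bound mRNA, was at 1827, 1938 and 1912 CPM in CON and 1200, 1240 and 1165 CPM in KD. It was the most abundant member per kilobase, at 748 CPM in CON and 475 CPM in KD, and it fell 1.57-fold (log2 -0.66, SE 0.039, adjusted p = 1.216e-09). Alyref, an mRNA export adaptor, was at 112, 111 and 107 CPM in CON and 68.8, 68.4 and 70.6 CPM in KD, a fall of 1.59-fold (log2 -0.67, SE 0.048, adjusted p = 8.936e-09). Each gene had a gap between groups wider than its spread within them. Ybx1 and Alyref have near copies elsewhere in the mouse genome, with the handling of reads that match several places not given in the sources used here.

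All 5 tested stand-alone pseudouridine synthases fell (100%, against 30.8% of all genes). With library-size scaling only, 4 of them were lower (19.6% of all genes were), and Pus10 turned to 0.02. Trub2, a mitochondrial synthase, was at 68.0, 68.1 and 68.5 CPM in CON and 37.7, 39.7 and 40.3 CPM in KD, a fall of 1.74-fold (log2 -0.80, SE 0.055, adjusted p = 6.069e-09). Pus7, which modifies tRNA and mRNA, was at 72.0, 67.9 and 75.5 CPM in CON and 46.8, 45.7 and 48.3 CPM in KD, a fall of 1.53-fold (log2 -0.61, SE 0.058, adjusted p = 1.842e-07). Neither gene overlapped between groups. Trub1, a tRNA and mRNA synthase, fell from 42.1 ± 1.92 to 26.5 ± 0.773 CPM (log2 -0.67, SE 0.064, adjusted p = 2.496e-07). Pus1, which acts on tRNA of the cytosol and the mitochondria, fell from 75.3 ± 4.24 to 50.9 ± 1.24 CPM (log2 -0.56, SE 0.057, adjusted p = 4.361e-07). Trub2 shares 921 exonic bases with Coq4 on the opposite strand.

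Pus10, a synthase with a part in microRNA processing, was at 33.2, 31.7 and 29.6 CPM in CON and 24.5, 26.5 and 31.0 CPM in KD, so its groups overlapped through KD-3. The fall was small (log2 -0.21, SE 0.085, adjusted p = 0.04465). It was not called without CON-1, CON-2, KD-1 or KD-2 (adjusted p = 0.1035 to 0.1701). Pus3, a tRNA synthase, was too low to test, with counts of 1, 10 and 6 in the CON libraries against 26, 9 and 15 in the KD libraries. Of its 2972 exonic bases, 2618 are shared with Hyls1 on the opposite strand, which held 592 to 650 counts in each library.

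The 5 snoRNA-particle core proteins among the members all fell (100%, against 30.8% of all genes). With library-size scaling only, all 5 were also called lower, where 19.6% of all genes were. Gar1, a subunit of the box H/ACA particle that makes pseudouridine, was at 73.5, 74.0 and 73.0 CPM in CON and 39.8, 40.3 and 39.8 CPM in KD. It fell 1.84-fold, and its libraries within a group differed by little (log2 -0.88, SE 0.052, adjusted p = 1.173e-09). Fbl (fibrillarin), the methyltransferase of the box C/D particle, was at 280, 303 and 304 CPM in CON and 174, 178 and 182 CPM in KD, a fall of 1.66-fold (log2 -0.73, SE 0.046, adjusted p = 2.000e-09). The other 3 box H/ACA proteins fell by less. Dkc1 (dyskerin), the catalytic subunit, went from 138 ± 1.73 to 101 ± 10.3 CPM (log2 -0.44), Nhp2 from 142 ± 1.22 to 102 ± 1.80 CPM (log2 -0.48) and Nop10 from 49.5 ± 1.24 to 36.7 ± 1.57 CPM (log2 -0.43). Per kilobase in CON, Nhp2 was at 124 CPM, Nop10 at 44.6, Gar1 at 42.9 and Dkc1 at 33.5 CPM.

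Both subunits of the enzyme that methylates adenosine in the T-loop of tRNA (m1A58) were lower, where 30.8% of all genes were. Trmt61a, the catalytic subunit (chr12:111678105-111683902, plus strand), was at 42.6, 49.5 and 46.9 CPM in CON and 25.8, 27.2 and 21.1 CPM in KD. It fell 1.87-fold (log2 -0.91, SE 0.088, adjusted p = 2.911e-07). Trmt6, the non-catalytic subunit, was at 50.2, 48.5 and 50.7 CPM in CON and 35.5, 39.7 and 45.1 CPM in KD, a fall of 1.24-fold (log2 -0.31, SE 0.076, adjusted p = 0.002141). The Trmt6 call was lost with library-size scaling (-0.08, adjusted p = 0.3591).

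Of the 3 enzymes that modify bases of the small ribosomal subunit RNA, 2 fell (66.7%) and 1 rose (33.3%). Among all genes 30.8% were lower and 32.2% higher, so the rise is at the share of all genes. Emg1, which methylates a pseudouridine there, was at 210, 210 and 223 CPM in CON and 180, 175 and 165 CPM in KD (log2 -0.31, SE 0.047, adjusted p = 3.748e-05), and the call was lost with library-size scaling (-0.08). Dimt1, which dimethylates adenosines near the end of that RNA, was at 36.9, 30.7 and 34.5 CPM in CON and 23.0, 23.7 and 27.1 CPM in KD. Its fall was 1.38-fold (log2 -0.47, SE 0.084, adjusted p = 0.0001661), and it shares 1229 exonic bases with Kif2a on the opposite strand. Bud23, an m7G writer that needs Trmt112, was at 43.7, 45.2 and 47.5 CPM in CON and 52.9, 50.9 and 47.3 CPM in KD. The groups overlapped, and the rise was at the edge of the threshold (log2 0.15, SE 0.062, adjusted p = 0.04828). Leaving out any library but KD-3 ended the Bud23 call (adjusted p = 0.05995 to 0.2075).

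Wobble-base enzymes of tRNA gave 2 falls (66.7%, against 30.8% of all genes) and 1 member that did not pass. Adat2, a subunit of the deaminase that makes inosine, was at 22.9, 23.2 and 22.6 CPM in CON and 14.1, 13.6 and 13.2 CPM in KD. It fell 1.68-fold (log2 -0.75, SE 0.076, adjusted p = 4.547e-07). Elp3, the catalytic subunit of Elongator, was at 145, 146 and 161 CPM in CON and 122, 129 and 142 CPM in KD. Its fall was 1.15-fold (log2 -0.20, SE 0.060, adjusted p = 0.0078), was not called without CON-3 (adjusted p = 0.05870), and turned to 0.03 with library-size scaling. Ctu1, which thiolates wobble uridine, was at 13.7, 14.0 and 13.0 CPM in CON and 17.3, 15.2 and 13.1 CPM in KD and did not pass (log2 0.16, SE 0.10, adjusted p = 0.1755). Without KD-3 it was called higher (log2 0.25, adjusted p = 0.01579), as it was with library-size scaling only (0.39, adjusted p = 0.003073).

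**Figure D3:**
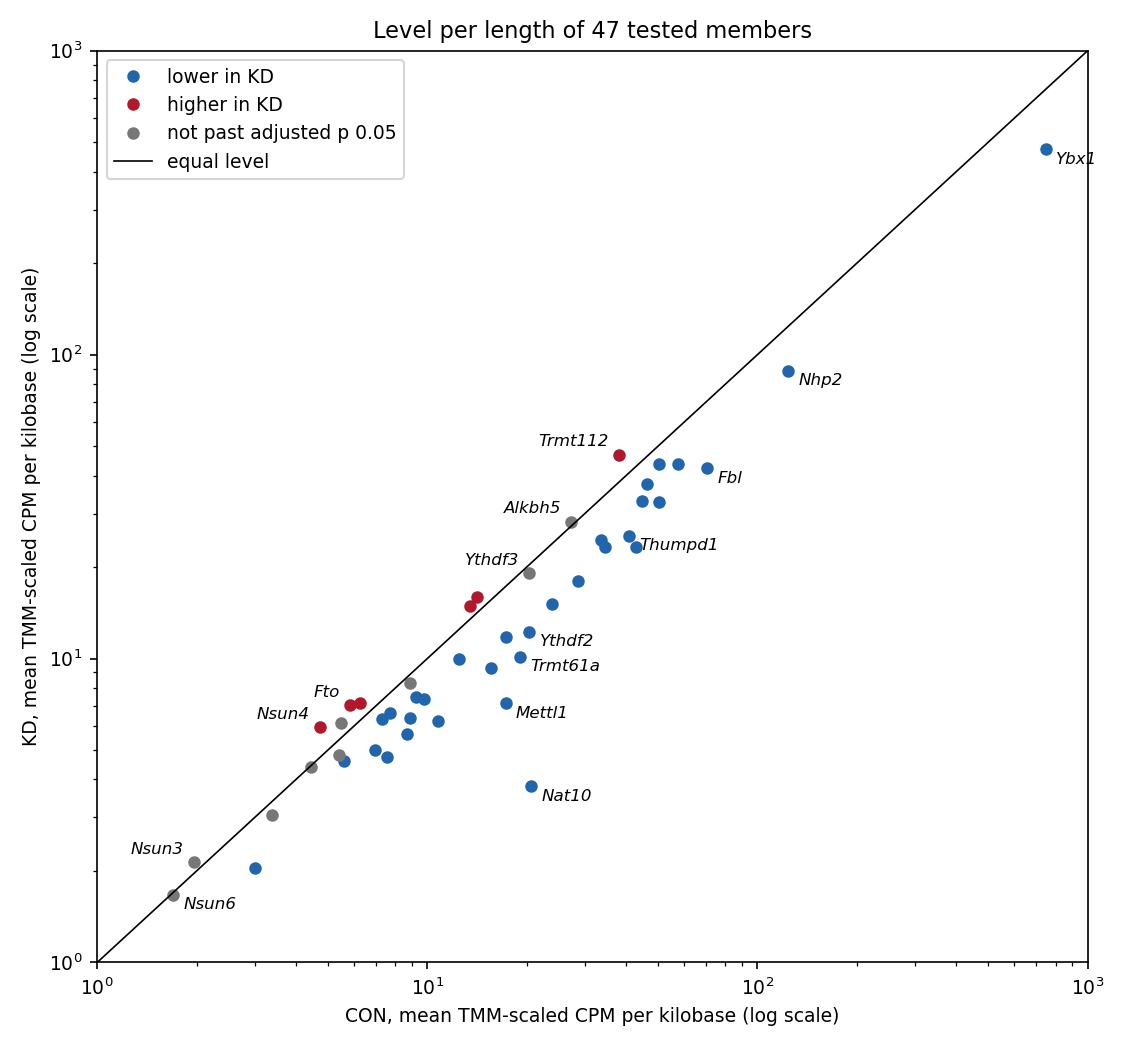
Mean TMM-scaled CPM per kilobase of exon in CON (horizontal, log scale) and KD (vertical, log scale) for the 47 tested members. Ybx1, at 748 and 475, is at the top end, Nsun6, at 1.70 and 1.67, is at the low end, and most points lie below the line of equal level.

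Ratios between members of the same complex or family within a library do not depend on how libraries are scaled. They were formed for 16 pairs chosen after the data were seen, so they describe these libraries. In 15 pairs the ratios of the CON and KD libraries did not overlap. How often this holds for other pairs of genes was not counted, so it is not shown to be particular to these pairs. Among single genes, every KD library was below every CON library for 32.8% of all tested and above for 34.4%. With 3 libraries against 3, the two-sided exact permutation test cannot go below p = 0.1, which is what each of these 15 gave (adjusted over the 16 pairs, 0.107). The ratio of Nat10 to Thumpd1 counts was 1.21 ± 0.0530 in CON and 0.359 ± 0.00301 in KD. That of Mettl1 to Wdr4 was 0.946 ± 0.0854 in CON and 0.521 ± 0.0444 in KD, 1.82-fold lower. Every KD library had less Mettl1 relative to Wdr4 than any CON library.

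Within the m6A writer, the ratio of Mettl14 to Mettl3 went from 1.15 ± 0.107 to 0.877 ± 0.0279 and that of Wtap to Zc3h13 from 1.21 ± 0.0597 to 0.732 ± 0.00480. Among readers, Ythdf2 to Ythdf3 went from 0.853 ± 0.0338 to 0.547 ± 0.0238, and Ythdf2 to Ythdf1 from 0.489 ± 0.0115 to 0.388 ± 0.0144. Within the box H/ACA core, Gar1 was lower relative to each of its partners, for example 0.517 ± 0.00280 in CON and 0.393 ± 0.00810 in KD against Nhp2. The ratio of Nsun2 to Nsun4 went from 10.2 ± 0.254 to 5.29 ± 0.238, the widest shift after that of Nat10 to Thumpd1. Thumpd3 to Trmt112 went from 1.74 ± 0.0974 to 1.13 ± 0.0773. Bud23 to Trmt112 was the pair with overlap, at 0.970 ± 0.0698 and 0.874 ± 0.0839 (exact p = 0.2, adjusted 0.2).

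**Figure D4:**
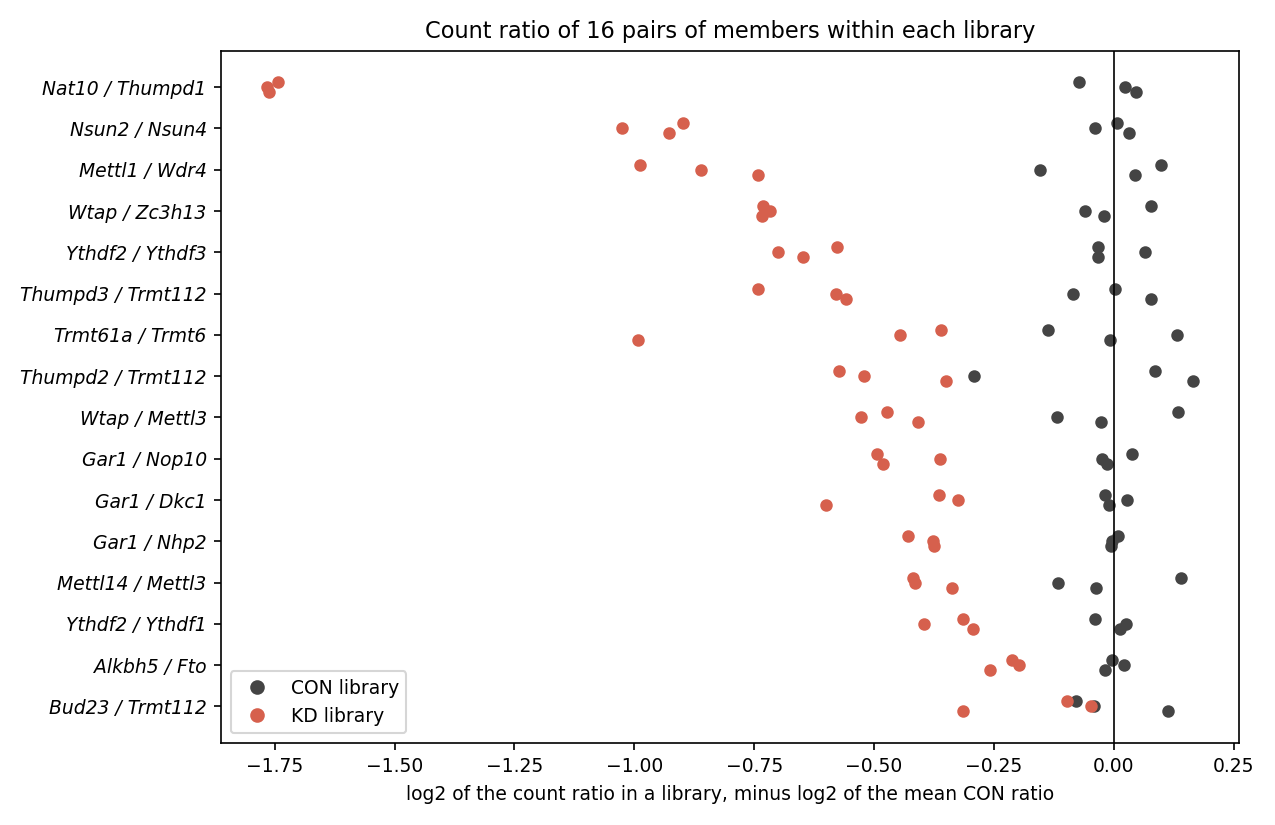
Count ratio of 16 pairs of members in each library, as log2 and relative to the mean CON ratio of the pair (0 on the horizontal axis). CON libraries (dark) and KD libraries (red) overlap only for Bud23 over Trmt112, and the shift is widest for Nat10 over Thumpd1 at -1.76.

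Other genes of the same pathways were read from a list of 109 related genes, of which 105 were tested and Tp53rk and Adat3 were not analysed here. Among them 55 fell (52.4%, against 30.8% of all genes) and 16 rose (15.2%, against 32.2%), while 34 did not pass, and the median log2 fold change was -0.20. With library-size scaling only, 30 fell and 33 rose (19.6% and 46% of all genes), so for this wider list the balance turned with the scaling. The remaining snoRNA-particle proteins and assembly factors had 8 of 10 lower (80%, against 30.8% of all genes) and 0 higher (against 32.2%). With library-size scaling only, 6 were lower and 2 higher. Nop56 fell from 377 to 176 CPM (log2 -1.10) and Nop58 from 348 to 138 CPM (log2 -1.34). Both are core proteins of the box C/D particle beside Fbl. So is Snu13, which fell from 174 to 139 CPM (log2 -0.32), a call lost with library-size scaling (-0.09, adjusted p = 0.07509). Other m6A readers had 6 of 8 lower (75%, against 30.8% of all genes) and 0 higher (against 32.2%). With library-size scaling only, 4 were lower and 2 higher. Igf2bp1 went from 735 to 517 CPM (log2 -0.51) and Fmr1 from 77.7 to 41.1 CPM (log2 -0.92).

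Among other m6A and cap methylation genes, 7 of 16 fell (43.8%, against 30.8% of all genes) and 5 rose (31.2%, near 32.2%). Library-size scaling turned the balance to 3 lower and 7 higher. Rnmt, the cap guanosine methyltransferase, fell from 94.8 to 41.8 CPM (log2 -1.18), and Mettl5, another writer that needs Trmt112, from 34.6 to 18 CPM (log2 -0.94). Virma, a scaffold of the m6A writer, rose from 76.4 to 99.6 CPM (log2 0.38) and Mepce, which caps a small nuclear RNA, from 74.0 to 97.7 CPM (log2 0.40). Other tRNA methylation genes had 9 of 25 lower (36%) and 6 higher (24%), near the 30.8% and 32.2% of all genes, and 4 lower and 9 higher with library-size scaling only. Named examples are Alkbh1 at log2 -0.52 and Hsd17b10 at -0.45, and Trmt2b from 6.13 to 18.4 CPM (log2 1.58) and Lcmt2 at 0.54. For the tRNA anticodon loop, 15 of 28 fell (53.6%) and 3 rose (10.7%), and library-size scaling turned this to 8 lower and 9 higher. Examples are Yrdc at log2 -0.83, Dus4l at -1.24, Trmu at 0.35 and Osgep at 0.20.

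Further ribosomal RNA modification genes had 5 of 9 lower (55.6%, against 30.8% of all genes) and 0 higher, with Nop2 at log2 -0.59 and Rrp8 at -0.69. With library-size scaling only, 3 were lower and 2 higher. Other pseudouridine synthases had 3 of 6 lower (50%, against 30.8% of all genes) and 1 higher (16.7%, against 32.2%). Pusl1 was at log2 -0.45, Rpusd2 at -0.33 and Pus7l at 0.33. With library-size scaling only, 0 were lower. Of the adenosine deaminases, Adat1 (log2 -0.82) and Adar (log2 -0.54) fell and Adarb1 rose from 16.3 to 29.7 CPM (log2 0.87), all 3 in the same direction under library-size scaling.

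Members that start close to a coding gene on the opposite strand were compared with that neighbour, a comparison added after the data were seen. Within 1000 bases, 12 members have such a neighbour, and 10 of these pairs had both genes tested. The neighbour was called in the member's direction in 6 pairs, in the other direction in 1 and did not pass in 3. Over all 1415 cases of a called coding gene with such a tested neighbour, these outcomes made up 42.1, 28.3 and 29.6%, and the members' counts were not tested against them. Trmt6 (log2 -0.31) lies 86 bases from Mcm8 (log2 -0.86), Emg1 (-0.31) 158 bases from Phb2 (-0.70), and Pus10 (-0.21) 285 bases from Pex13 (-0.32). Among members that rose, Fto lies 263 bases from Rpgrip1l (0.30), Trmt112 408 bases from Prdx5 (0.66) and Bud23 757 bases from Dnajc30 (0.45). Bud23 and Dnajc30 share 436 exonic bases. Alyref fell although Anapc11, 56 bases away, rose (log2 0.16, adjusted p = 0.04568). Adat2, Nsun2 and Wdr4 fell beside Pex3 (0.04), Tent4a (-0.11) and Ndufv3 (-0.02), which did not pass.

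**Figure D5:**
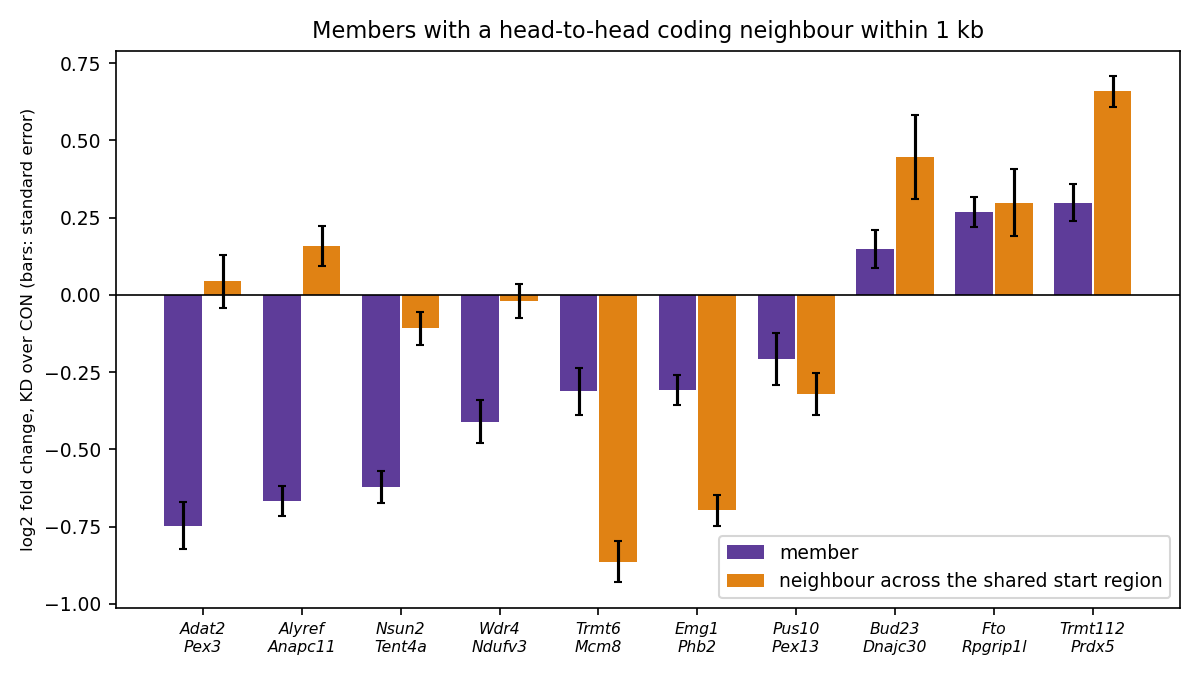
Log2 fold change (KD over CON, vertical axis) with SE bars of 10 members and of the coding gene that starts on the other strand within 1000 bases. In 6 pairs both genes were called in the same direction, and Alyref with Anapc11 is the pair called in opposite directions.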

How the data were processed

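Poly(A)-selected RNA of E14 cells was sequenced in 3 CON and 3 KD libraries. Per the submitters' processing notes, FastQC 0.11.9, STAR 2.5.3a and featureCounts were used with build mm10. The annotation release, strand setting and multi-mapping rule (not given in the sources used here) could change counts of overlapping or repeated genes. The deposited table holds raw counts per gene, per the file headers. It also holds FPKM made by the authors, used here only to recover gene lengths. The authors' own log2 fold change (CON over KD from the values) and adjusted p-value are in the deposited table too, and their test is not given. Columns were matched to samples by name, and 0 were left unmatched. Of counts from 1 to 20, 70 to 71.7% were even in each library, so both mates of a pair may have been counted, and the fit was repeated on counts divided by 2.

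Counts were fitted in R 4.3.3 with edgeR 4.0.16 (filterByExpr, 18019 genes; TMM, factors 0.922 to 0.926 in CON and 1.08 to 1.084 in KD; robust quasi-likelihood F-test; Benjamini-Hochberg over all genes). The script was tested on simulated data. The SE is the log2 fold change over the square root of F. A further 14 fits covered other scalings, filters, DESeq2 1.42.0, a replicate block and each library left out. Positions and overlaps are from GENCODE M21 (GRCm38) and promoter windows from RefSeq (GRCm38.p6).

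The members, related genes, markers, motifs and tests were chosen with earlier results of these data known. Every member is accounted for. Values in each library are given for Nat10, Thumpd1 and up to 2 members per role and direction by smallest p, and for Wdr4, Mettl3, Alkbh5, Ythdf3, Pus10 and Ctu1, which were chosen after their values were seen. Related genes are named by the same limit per list, with Snu13 added after its values were seen.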

Additional observations from a re-analysis of the deposited data

How the results depend on the processing

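Of the 38 members called, 25 of the 32 lower and 3 of the 6 higher (Trmt112, Fto, Nsun4) were called the same way in all 14 alternatives. Scaling by library size only moved most: 11 members higher, 4 lower by at least 1.5-fold, a members' median of -0.18, 30 related genes lower and 33 higher, and 3535 of all genes lower with 8280 higher (29.9% of calls lower, against 48.9%). Under it the values of Thumpd2 (0.056), Mettl3 (0.14), Rbm15 (0.21), Ythdf3 (0.14), Ythdc1 (0.0087), Ythdc2 (0.085), Nsun6 (0.21), Pus10 (0.022) and Elp3 (0.027) turned positive. Upper-quartile scaling turned Rbm15 (0.023) and Nsun6 (0.016). The cause of the composition shift was not tested. Leaving out 1 library each gave 31 to 35 members lower and 3 to 7 higher, with 3 without CON-1 (Trmt112, Fto and Nsun4). At 1.5-fold, 14 to 17 were lower and 0 to 1 higher, the 1 being Pus3 without KD-2 (log2 1.63). Rbm15 ranged from -0.059 to 0.031 and turned positive without CON-3 or KD-3, and Nsun6 ranged from -0.17 to 0.13 and did so without CON-1 or KD-1. With the replicate block, 31 members were lower and 5 higher, and Pus10 (adjusted p = 0.05917) and Bud23 (0.09170) were not called. Deviations of same-numbered CON and KD libraries correlated at -0.0608, 0.0151 and -0.0387, and no CON library correlated best with its own number. These values gave no sign that the numbers pair the libraries, but with 3 libraries per group they cannot exclude it. The other alternatives kept the direction of every tested member. Each group has 3 libraries, CPM are shares of a library, and members below about 15 CPM (Thumpd2, Nsun3, Nsun6, Trdmt1, Ctu1) have the largest SE, so small differences there were not detectable.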
